A study of Homo sapiens with 6 samples.

Results

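The circadian clock genes examined here are 10 genes, CLOCK, ARNTL (also called BMAL1), PER1, PER2, PER3, CRY1, CRY2, DBP, NFIL3 and BHLHE40, taken by their symbols from the 17911 genes of the deposited expression table. All 10 had 1 row each, and each passed the filter on low values in every library. RNA was sequenced from HL-60, an established human promyelocytic leukaemia line, in 3 libraries of cells given 10 uM amiodarone for 24 h and in 3 libraries labelled control. Amiodarone is an antiarrhythmic drug that blocks several ion channels. The labels of the controls give no time of harvest and name no vehicle. No label says whether the libraries came from separate cultures or whether the cells were synchronised. P-values therefore rest on the spread among 3 libraries a group, which could be technical in origin. No group has a series of times, so levels are described here and not rhythms.

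The clock is a transcriptional feedback loop. CLOCK and ARNTL proteins pair, bind E-box motifs and switch on the PER and CRY genes, whose proteins return to inhibit the pair. BHLHE40 (DEC1) competes at E-boxes as a repressor. DBP activates and NFIL3 (E4BP4) represses genes that carry D-box motifs, and the NR1D and ROR nuclear receptors act on ARNTL and NFIL3 through another motif, the RORE. NFIL3 and BHLHE40 are also known outside the clock, as genes induced by cytokines, stress and, for BHLHE40, hypoxia.

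The promoters of 5 of these genes are shown because they carry clock motifs and belong to genes that did not move alike. Each window runs from 250 bases before to 50 after a RefSeq transcript start (GRCh38.p14), 5′ to 3′ on the strand of the gene. Capitals mark an E-box (CACGTG) in BHLHE40 and PER1, a D-box (TTACGTAA or TTATGTAA) in PER2 and PER3, and the RORE core TAGGTCA, here on the other strand as TGACCTA, in NFIL3. The windows are chr3:4979187-4979486 on the plus strand for BHLHE40, chr17:8152355-8152654 on the minus strand for PER1, chr2:238288561-238288860 on the minus strand for PER2, chr1:7784041-7784340 on the plus strand for PER3 and chr9:91423783-91424082 on the minus strand for NFIL3.
BHLHE40 promoter window: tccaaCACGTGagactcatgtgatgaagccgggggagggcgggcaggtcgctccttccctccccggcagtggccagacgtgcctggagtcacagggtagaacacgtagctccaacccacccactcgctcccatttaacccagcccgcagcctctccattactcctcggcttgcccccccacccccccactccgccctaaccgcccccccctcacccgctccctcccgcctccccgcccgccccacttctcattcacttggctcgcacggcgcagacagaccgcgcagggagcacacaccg
PER1 promoter window: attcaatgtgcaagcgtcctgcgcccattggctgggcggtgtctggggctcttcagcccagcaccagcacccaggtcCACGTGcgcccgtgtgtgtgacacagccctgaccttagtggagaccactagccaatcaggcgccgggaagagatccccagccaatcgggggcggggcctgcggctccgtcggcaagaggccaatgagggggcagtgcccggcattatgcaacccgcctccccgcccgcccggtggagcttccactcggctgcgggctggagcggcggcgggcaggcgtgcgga
PER2 promoter window: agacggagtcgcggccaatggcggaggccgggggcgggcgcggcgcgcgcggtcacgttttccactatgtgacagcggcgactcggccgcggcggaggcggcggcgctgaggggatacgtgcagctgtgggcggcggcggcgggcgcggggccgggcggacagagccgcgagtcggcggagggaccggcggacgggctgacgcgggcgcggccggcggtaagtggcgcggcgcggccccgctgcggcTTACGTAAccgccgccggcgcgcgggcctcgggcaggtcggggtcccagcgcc
PER3 promoter window: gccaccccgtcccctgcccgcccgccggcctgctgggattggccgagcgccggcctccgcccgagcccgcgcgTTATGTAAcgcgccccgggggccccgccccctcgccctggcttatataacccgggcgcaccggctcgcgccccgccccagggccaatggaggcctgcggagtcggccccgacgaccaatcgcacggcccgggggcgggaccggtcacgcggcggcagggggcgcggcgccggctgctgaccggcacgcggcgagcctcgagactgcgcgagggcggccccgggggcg
NFIL3 promoter window: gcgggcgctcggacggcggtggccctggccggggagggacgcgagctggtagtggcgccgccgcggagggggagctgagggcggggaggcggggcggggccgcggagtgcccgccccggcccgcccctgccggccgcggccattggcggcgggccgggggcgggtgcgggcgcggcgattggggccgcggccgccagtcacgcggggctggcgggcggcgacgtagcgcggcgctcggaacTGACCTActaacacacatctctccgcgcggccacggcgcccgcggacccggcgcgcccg

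The BHLHE40 E-box began 245 bases before the start and that of PER1 173 bases before it. The D-box of PER2 began 3 bases before the start and that of PER3 177 bases before it. Both strands were searched, and no motif overlapped another. Among 35116 RefSeq promoter windows, 7.26% held the E-box letters, 1.01% a D-box, 1.85% the cyclic AMP response element TGACGTCA and 1.85% the RORE core. The 10 genes had 15 windows in all; the RORE core was also found in 1 window each of ARNTL and CRY2, and TGACGTCA in none of the 15. All windows shown were richer in G and C than the median window (58.7%). They had 83.0% (NFIL3), 80.7% (PER3), 80.3% (PER2), 69.0% (PER1) and 68.0% (BHLHE40). Among the windows not shown, only an ARNTL window (49.3%) and a CRY2 window (46.3%) lay below that median. A match describes these letters only.

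Amiodarone libraries held more NFIL3 and BHLHE40 RNA and less PER2 and CRY2 RNA than controls, while CLOCK, CRY1 and PER1 did not pass the test. The table states no unit, and its values have the properties of RPKM, which corrects read numbers for gene length and sequencing depth. Log2 fold changes are amiodarone minus control on log2(value + 1), which understates the change of low genes, and a fold is the amiodarone mean over the control mean before logs. Tests are limma with Benjamini-Hochberg adjustment over 11445 tested genes, and a gene was called at an adjusted p under 0.05. Of the 10 genes, 7 were called, 5 higher and 2 lower. Over all tested genes 78.3% were called, 33.5% higher and 44.8% lower, so a call by itself does not set the clock genes apart. With values scaled to equal sums, 4 of the 10 were higher and 3 lower, and 3098 of all tested genes were higher and 5908 lower. The median log2 fold change was 0.15 over the 10 genes and -0.06 over all tested genes. Of all called genes 42.8% were higher, against 34.4% after scaling to equal sums and 53.7% after scaling to equal upper quartiles. The groups did not overlap in 8 of the 10, where 79.3% of all tested genes showed no overlap.

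**Figure D1:**
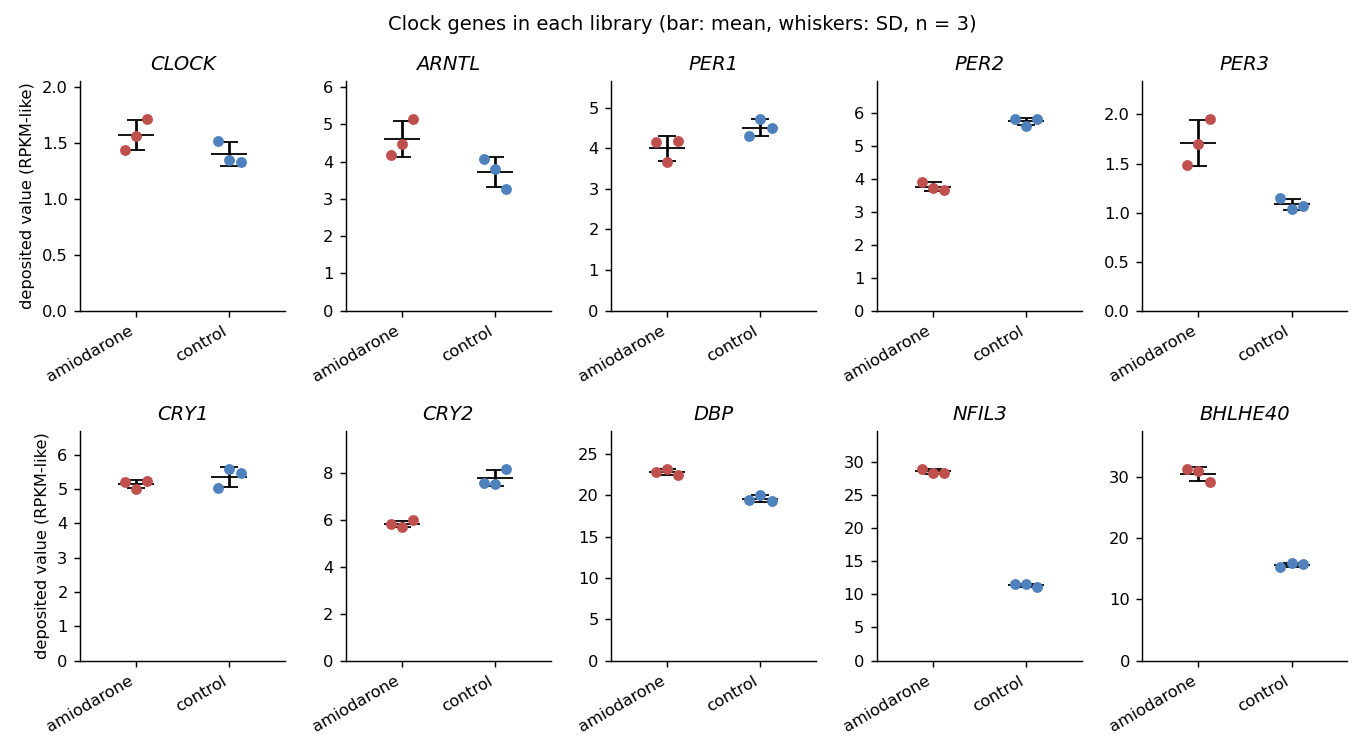
Deposited RPKM-like value (vertical axes, from 0) of each clock gene in the 3 amiodarone and 3 control libraries, with group mean and SD. NFIL3 lay at 28.29 to 28.87 in amiodarone libraries and 11.1 to 11.51 in controls, whereas the groups overlap for CLOCK and CRY1.

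NFIL3, the D-box repressor, showed the largest change of the 10. Its value was 28.87, 28.34 and 28.29 in the amiodarone libraries, against 11.51, 11.48 and 11.1 in the controls. Every amiodarone library was far above every control, and replicates of a group lay close together. The mean was 2.51-fold higher, 28.5 ± 0.321 with amiodarone and 11.4 ± 0.229 in controls (SD, n = 3 each). The log2 fold change of 1.25 (SE 0.036, limma, adjusted p = 1.9e-10) ranked 146th from the top of the 11445 tested genes. NFIL3 was the only one of the 10 past 2-fold on this scale, as were 2.55% of all tested genes in the upward direction. In GENCODE 29 (GRCh38) the gene spans 91409045 to 91423862 of chromosome 9, minus strand, and no annotated exon of another gene overlaps its exons.

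BHLHE40, the E-box repressor, had the next largest rise. Libraries gave 31.34, 31.08 and 29.29 with amiodarone, against 15.25, 15.89 and 15.84 in controls. Every amiodarone library was above every control, with means of 30.6 ± 1.12 with amiodarone and 15.7 ± 0.356 in controls (SD, n = 3 each), a ratio of 1.95. Its log2 fold change was 0.92 (SE 0.038, limma, adjusted p = 3.46e-09), 373rd from the top of all tested genes. It spans 4979116 to 4985323 of chromosome 3, plus strand. Its paralogue BHLHE41 (DEC2), which has the same E-box role and was chosen after its values were seen, averaged 2.39 ± 0.038 with amiodarone and 2.37 ± 0.176 in controls, with adjusted p = 0.925 (limma).

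DBP, which activates D-box genes, was higher by a smaller amount. It had 22.89, 23.19 and 22.43 in amiodarone libraries and 19.43, 20.1 and 19.3 in controls, with no overlap. The ratio of means was 1.16 and the log2 fold change 0.21 (SE 0.035, limma, adjusted p = 2.13e-04). Its relative TEF went the other way. TEF averaged 2.16 ± 0.076 with amiodarone and 3.6 ± 0.046 in controls (limma, adjusted p = 6.52e-06). HLF, another relative, averaged 0.687 ± 0.133 with amiodarone and 1.17 ± 0.131 in controls; it passed the filter on low values only through the controls, so this difference is a description with no test. DBP spans 48630030 to 48637438 of chromosome 19, minus strand. SPHK2 on the opposite strand covers 10.1% of its exonic bases, and no source used here says whether counting used strand.

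The balance of the D-box factors was therefore different in the groups. NFIL3 over DBP was 1.26, 1.22 and 1.26 within the amiodarone libraries, against 0.592, 0.571 and 0.575 in controls. By the deposited values, controls held more DBP than NFIL3 and amiodarone libraries more NFIL3 than DBP. Which gene stood higher rests on gene lengths that no source used here gives. DBP has 6544 exonic bases over all annotated transcripts and 2229 over those matched to RefSeq, and NFIL3 has 2085 in both. The difference of the ratio between groups does not depend on these lengths. No test was made of this ratio, since its parts were tested one by one.

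The period genes did not move as a block. PER2 fell, at 3.91, 3.73 and 3.65 in amiodarone libraries against 5.8, 5.61 and 5.8 in controls. All amiodarone libraries lay below all controls, with a ratio of means of 0.656 and a log2 fold change of -0.50 (SE 0.053, limma, adjusted p = 5.71e-06). It was the lowest of the 10 by fold change and ranked 1828th from the bottom of all tested genes. PER3 rose, at a low level: amiodarone libraries had 1.48, 1.7 and 1.95, against 1.15, 1.04 and 1.07 in controls. Its amiodarone libraries were spread more widely than its controls but did not overlap them. The ratio of means was 1.57 and the log2 fold change 0.37 (SE 0.080, limma, adjusted p = 0.00125), which reached 0.60 with a pseudocount of 0.1.

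PER1, known as a fast responder to cyclic AMP signals, had 4.15, 3.65 and 4.18 in amiodarone libraries and 4.29, 4.71 and 4.5 in controls. The amiodarone libraries were all lower, yet the log2 fold change of -0.14 did not pass (95% interval -0.28 to -0.0011 before adjustment, limma, adjusted p = 0.061). It passed with values scaled to equal sums (-0.21, limma, adjusted p = 0.00861) and without a variance trend (adjusted p = 0.0435). PER1 over PER2 was 1.06, 0.979 and 1.15 in amiodarone libraries, against 0.74, 0.84 and 0.776 in controls. PER1 spans 8140472 to 8156506 of chromosome 17 and PER2 238244038 to 238290102 of chromosome 2, both on the minus strand, and PER3 spans 7784320 to 7845177 of chromosome 1, plus strand. UTS2 on the opposite strand covers 10.7% of the PER3 exonic bases, at a mean value of only 0.057.

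Of the cryptochromes, the main repressors of the CLOCK and ARNTL pair, CRY2 fell. CRY2 had 5.85, 5.72 and 5.99 with amiodarone, against 7.61, 7.57 and 8.19 in controls, without overlap. Its ratio of means was 0.751 and its log2 fold change -0.36 (SE 0.051, limma, adjusted p = 5.8e-05). CRY1 had 5.21, 5.01 and 5.24 with amiodarone and 5.04, 5.59 and 5.47 in controls. These ranges overlap, and the log2 fold change was -0.05 with a 95% interval of -0.17 to 0.07 (limma, adjusted p = 0.434). The sign of this CRY1 value turned with upper-quartile scaling (0.04). CRY1 over CRY2 was 0.891, 0.876 and 0.875 in amiodarone libraries and 0.662, 0.738 and 0.668 in controls, so it was higher with amiodarone. CRY1 spans 106991364 to 107093829 of chromosome 12, minus strand, and CRY2 45847118 to 45883248 of chromosome 11, plus strand.

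**Figure D2:**
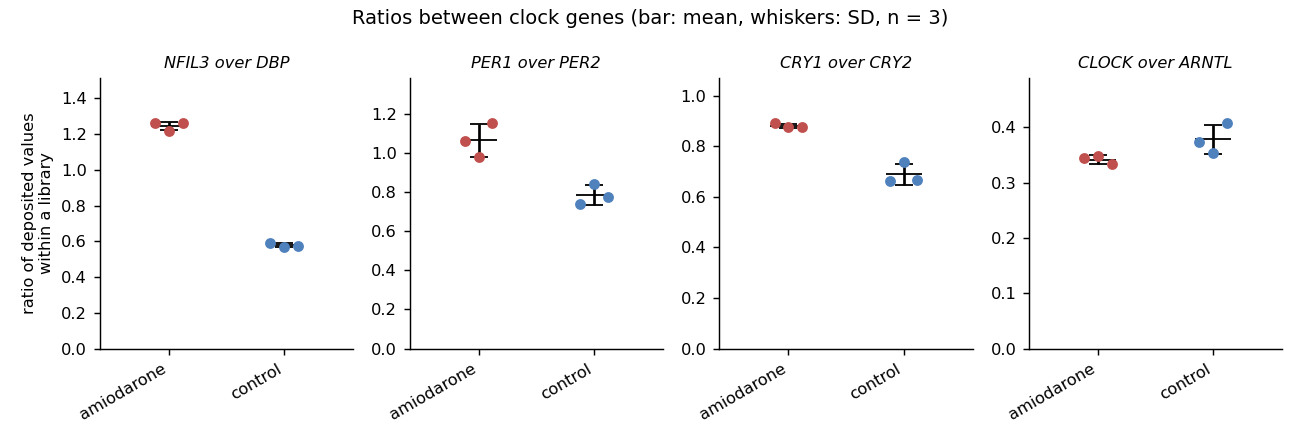
Ratio of deposited values of gene pairs within each library (vertical axes, from 0), with group mean and SD of 3 libraries. NFIL3 over DBP was at least 1.22 in amiodarone libraries and at most 0.592 in controls, and CLOCK over ARNTL was 0.333 to 0.348 in amiodarone libraries and 0.354 to 0.407 in controls.

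The activator pair moved little. ARNTL had 4.18, 4.48 and 5.13 in amiodarone libraries, against 4.08, 3.81 and 3.27 in controls. The groups did not overlap, although their nearest libraries were at 4.18 and 4.08, with a ratio of means of 1.24 and a log2 fold change of 0.25 (SE 0.082, limma, adjusted p = 0.0169). This call ended without control replicate 3 (0.18, adjusted p = 0.0724), without amiodarone replicate 3 (0.18, adjusted p = 0.0714), with equal sums (0.17, adjusted p = 0.0737) and without the filter on low values (adjusted p = 0.0535). CLOCK, the partner of ARNTL, had 1.44, 1.56 and 1.71 with amiodarone and 1.52, 1.35 and 1.33 in controls. The groups overlap, and its log2 fold change of 0.10 had a 95% interval of -0.06 to 0.26 (limma, adjusted p = 0.234). CLOCK spans 55427903 to 55547138 of chromosome 4, minus strand, and ARNTL 13276652 to 13387266 of chromosome 11, plus strand. ARNTL2, a paralogue of ARNTL, rose to 5.81 ± 0.224 with amiodarone, against 3.98 ± 0.256 in controls (limma, adjusted p = 2.85e-05). NPAS2, the paralogue of CLOCK and likewise chosen after its values were seen, was below the filter at 0.607 ± 0.059 with amiodarone and 0.827 ± 0.1 in controls.

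**Figure D3:**
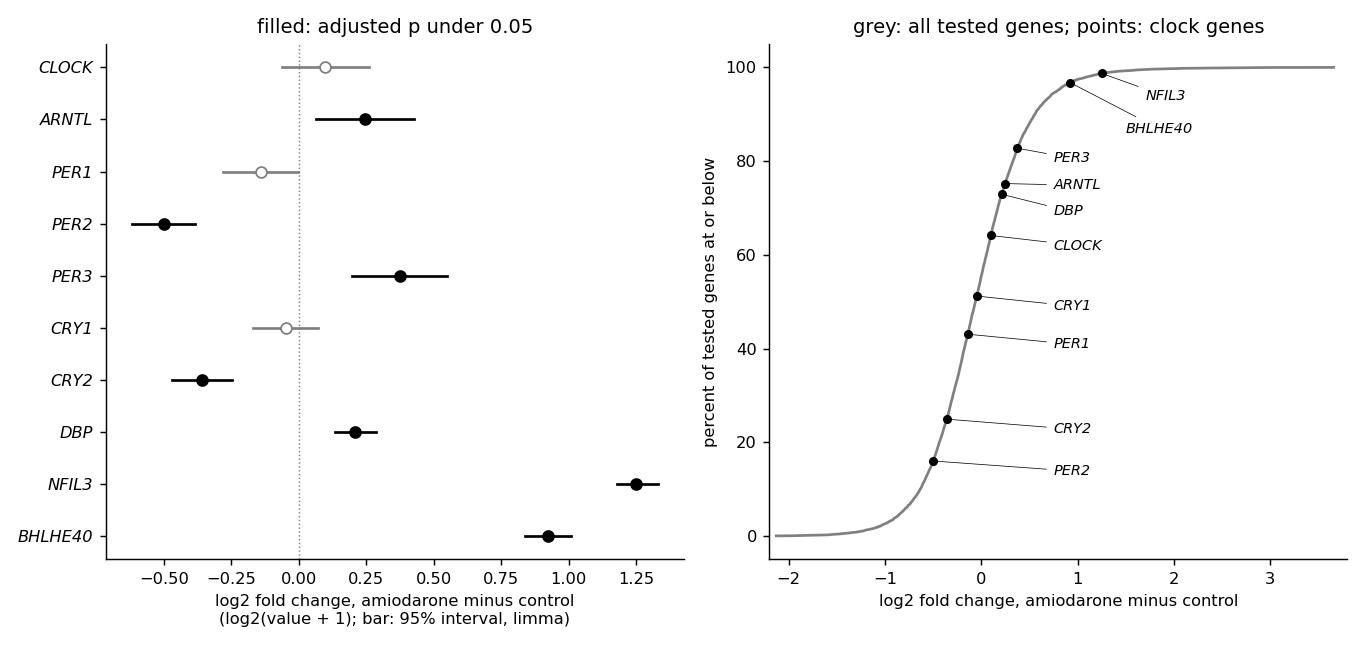
Left, log2 fold change of each clock gene (amiodarone minus control, horizontal axis) with its 95% interval from limma, filled where the adjusted p was under 0.05. Right, the same values as points on the cumulative distribution of all 11445 tested genes (vertical axis, percent): NFIL3 and BHLHE40 sit near the top, and the other 8 lie along the steep middle part between -0.50 and 0.37.

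The order of levels per length of transcript also differed. With amiodarone BHLHE40 came first (30.6), then NFIL3 (28.5), DBP (22.8), CRY2 (5.85), CRY1 (5.15), ARNTL (4.60), PER1 (3.99), PER2 (3.76), PER3 (1.71) and CLOCK (1.57). Ranges of libraries overlapped there between CRY1 and ARNTL, ARNTL and PER1, PER1 and PER2, and PER3 and CLOCK. In controls DBP came first (19.6), then BHLHE40 (15.7), NFIL3 (11.4), CRY2 (7.79), PER2 (5.74), CRY1 (5.37), PER1 (4.50), ARNTL (3.72), CLOCK (1.40) and PER3 (1.09). No neighbours in that order overlapped. DBP, NFIL3 and BHLHE40 stood above the other 7 in both groups. No source used here gives the gene lengths behind the values, which bear on levels between genes but not on fold changes.

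Other genes of the clock were listed by role from textbook knowledge, with earlier results of these data known. The lists held 76 genes, of which 74 were in the table and 68 were tested. HLF and SIK1 passed the filter only through the controls and are left out of the counts. Of the other 66 genes, 23 were higher, 36 lower and 7 not called, and the median was -0.10 on the log2 scale. The number called, 59 of 66, stands beside 78.3% of all tested genes (33.5% higher, 44.8% lower). Those shares keep genes that passed the filter through a single group. The same shares stand beside the count of each list below. The list of paralogues and nuclear receptors held 3 higher, 4 lower and 1 not called of 8 tested. Both NR1D genes, whose proteins (REV-ERB alpha and beta) repress ARNTL and NFIL3, rose. NR1D1 averaged 16.2 ± 0.417 with amiodarone and 11.8 ± 0.449 in controls (limma, adjusted p = 3.9e-06), and NR1D2 averaged 7.18 ± 0.337 with amiodarone and 4.62 ± 0.081 in controls (adjusted p = 2.93e-06). THRA on the opposite strand covers 9.49% of the NR1D1 exonic bases. RORA, which activates through the same motif and was chosen after its values were seen, stayed below the filter at 0.707 ± 0.012 with amiodarone and 0.317 ± 0.04 in controls.

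TIMELESS, a replication fork protein, fell to 5.15 ± 0.264 with amiodarone, against 11.3 ± 0.121 in controls (limma, adjusted p = 1.19e-08). CIART (CHRONO), a repressor of the CLOCK and ARNTL pair chosen after its values were seen, averaged 2.39 ± 0.19 with amiodarone and 3.82 ± 0.386 in controls (limma, adjusted p = 8.71e-05). Among kinases and phosphatases of clock proteins, 3 were higher and 8 lower of 12 tested, with a median of -0.09 that turned to 0.01 with upper-quartile scaling (4 higher, 5 lower; 3 and 5 with the median of ratios). The phosphatase catalytic subunit genes PPP1CA (0.696-fold) and PPP5C (0.74-fold) fell and PPP1CB rose 1.29-fold. CARNS1, RAD9A and TBC1D10C on the opposite strand cover 11.7%, 8.41% and 6.86% of the PPP1CA exonic bases. CSNK2B, the regulatory subunit of casein kinase 2, fell (0.755-fold), although another annotated gene on its strand covers 23.0% of its exonic bases. The PER kinases, also chosen after their values were seen, split. CSNK1D averaged 50.2 ± 1.38 with amiodarone and 44.5 ± 0.988 in controls. On the opposite strand, AC132872.4 covers 11.4% of the CSNK1D exonic bases and SLC16A3 (mean value 152.8) covers 4.37%. CSNK1E averaged 24.6 ± 1.02 with amiodarone and 30.9 ± 1.21 in controls, in a gene whose exons share 21.1% of their bases with a readthrough gene.

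**Figure D4:**
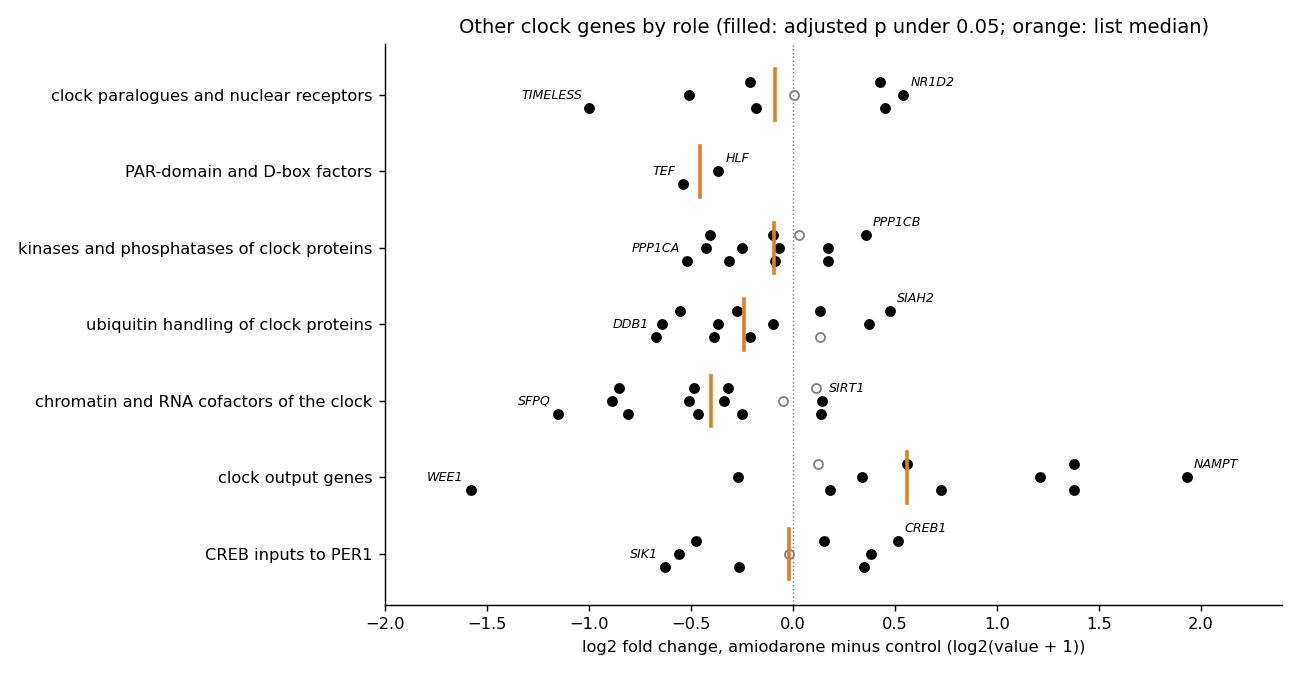
Log2 fold change (amiodarone minus control, horizontal axis) of the 68 other tested clock genes in 7 role lists, 1 point per gene with HLF and SIK1 included, filled where the limma adjusted p was under 0.05, with the list median as an orange line. HLF and SIK1 passed the filter only through the controls, so their filling is not read as a test result. Output genes lie mostly to the right (median 0.56) and cofactors mostly to the left (median -0.40).

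Of 12 tested genes of ubiquitin handling, 3 were higher and 8 lower (median -0.24; 4 and 6 with upper-quartile scaling). DDB1, an adaptor of cullin ligases, fell (0.622-fold), as did the ubiquitin ligase gene HUWE1 (0.626-fold) and the deubiquitinase gene USP7 (0.669-fold), whereas the ligase gene SIAH2 rose 1.41-fold. In the chromatin and RNA cofactor list, 10 of 14 fell and 2 rose (median -0.40; 11 and 0 with equal sums). SFPQ, an RNA-binding protein found in PER complexes, had 45.1 ± 1.19 with amiodarone and 101 ± 1.98 in controls, the largest change of that list (limma, adjusted p = 9.84e-11). METTL3, the writer of N6-methyladenosine in RNA, averaged 15.1 ± 0.575 with amiodarone and 28.8 ± 0.2 in controls, and EZH2, a histone methyltransferase, 12.1 ± 0.658 with amiodarone and 22.0 ± 1.05 in controls. THRAP3, a coactivator of CLOCK and ARNTL, fell as well (0.697-fold).

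Of 11 tested clock output genes, 8 were higher, 2 lower and 1 not called, with a median of 0.56. Over all tested genes, 33.5% were higher and 44.8% lower. This list was chosen with earlier results of these data known, and its direction was not tested. NAMPT, the rate-limiting enzyme of NAD salvage, had the largest change, at 111 ± 2.84 with amiodarone and 28.5 ± 0.866 in controls (3.9-fold, limma, adjusted p = 4.56e-12). The kinase gene PIM3 (2.63-fold), the cell cycle inhibitor gene CDKN1A (2.85-fold) and TSC22D3, a glucocorticoid-induced leucine zipper gene (2.36-fold), rose too. WEE1, a kinase that holds back mitosis and was chosen after its values were seen, went down, at 4.49 ± 0.486 with amiodarone and 15.3 ± 0.626 in controls. These genes answer to many signals beside the clock. Of the 8 genes of the CREB input to PER1 that passed the filter in both groups, 4 rose and 3 fell. The transcription factor gene CREB1 (1.48-fold) and its coactivator gene CRTC2 (1.28-fold) rose, and CRTC1 (0.696-fold) and the kinase gene SIK2 (0.613-fold), whose protein restrains CRTC proteins, fell.

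Markers of cell state differed between the groups, and their part in these results was not tested. The shares over all tested genes, 33.5% higher and 44.8% lower, stand beside each count of marker calls below. Of 7 promyelocyte markers (MPO, ELANE, PRTN3, AZU1, CTSG, CD33 and MYB), all were detected, 5 were lower and 1 was higher, and their summed value was 3120 to 3178 in amiodarone libraries and 6949 to 7071 in controls. MPO made up 83.2% to 83.3% of that sum with amiodarone and 84.7% to 85.1% in controls. CD33 (1.04-fold) was not called and MYB (1.11-fold) was the higher one. Of 8 markers of maturing myeloid cells, 5 were tested, of which 4 were higher and 1 lower. Sums over all 8 were 977 to 1028 in amiodarone libraries and 388 to 402 in controls. S100A9 made up most of these sums (mean 728 with amiodarone, 240 in controls). S100A8, ITGAM and MMP9 were the other higher ones, and CSF3R was the lower one (57.6 with amiodarone, 74.4 in controls). Below the filter, CSF1R averaged 0.557 with amiodarone and 1.09 in controls, and CD14 averaged 0.793 with amiodarone and 0.347 in controls. All 4 markers of cycling cells were lower, with sums of 90.6 to 91.7 in amiodarone libraries and 265 to 278 in controls. Of 3 lymphoid markers in the table only CD79A was tested, and sums over them were 9.35 to 10.0 with amiodarone and 11.5 to 12.2 in controls. Erythroid markers summed to at most 0.05 with amiodarone and 0.06 in controls, and the stromal list (116.7 to 122.5 with amiodarone, 129.9 to 135.2 in controls) was almost wholly VIM, which leukocytes also express. In bulk RNA, fewer cells of a type and less RNA per cell cannot be told apart. Libraries of a group correlated at 0.9975 to 0.9982 (Pearson's r of log2 values over tested genes), those of different groups at 0.959 to 0.96.

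The depth behind these values is an estimate. Steps between low values of short genes put it at 16200000 to 16300000 reads or fragments in amiodarone libraries and 17700000 to 18200000 in controls, if the values are RPKM. At that depth the 10 genes rest on about 116 (PER3) to 1763 (BHLHE40) reads per library, and counting alone gives a coefficient of variation of up to 9.27% for PER3, 7.72% for ARNTL and 6.25% for CLOCK in their lowest library.

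**Figure D5:**
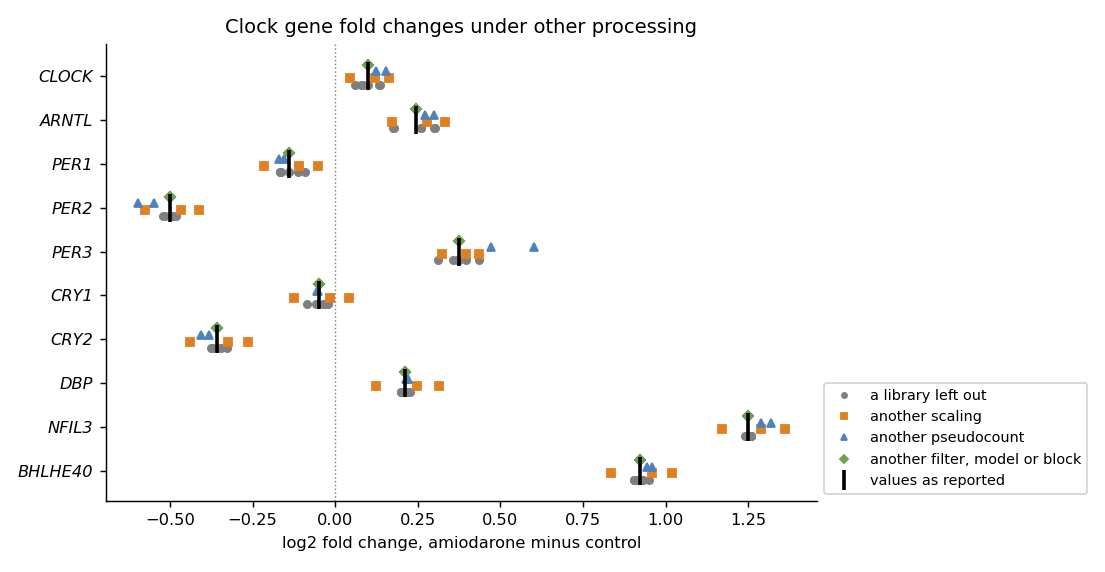
Log2 fold change (amiodarone minus control, horizontal axis) of each clock gene as reported (black bar) and under the other scalings, pseudocounts, filters and models and with single libraries left out. Only CRY1 crosses 0, at 0.04 with upper-quartile scaling.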

How the data were processed

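RNA from HL-60 cells was sequenced in 3 amiodarone and 3 control libraries after phenol extraction and stranded mRNA library preparation, per the labels' protocols. Tools listed in the submitters' processing notes are STAR 2.5.3a, fastp 0.23.4 and featureCounts, with the build GRCh38.p12 and no roles. The values deposited by the authors have the properties of RPKM, that is of read numbers normalized for gene length and depth; per the file headers they are only expression, and no source used here states the step. They are not whole, sums over 17911 genes are 534486 to 574483, and value times exonic length (RefSeq-matched GENCODE 29 transcripts, 17003 genes) sums to 1.23 to 1.26 times what RPKM over these lengths would give. At the best depth, 52.6% to 58.8% of low values lay within 0.15 of a whole read, so whole reads were not recovered.

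Values were used unscaled. A value of 1 or more was needed in 3 or more libraries, and the 11445 genes that had it were tested with limma 3.58.1 (R 4.3.3; lmFit, eBayes with trend, 6.59 prior and 4 residual degrees of freedom) on log2(value + 1), with Benjamini-Hochberg adjustment; 6466 genes were not tested. The procedure was tested on simulated data with normal noise drawn from the fitted variances and few changed genes. In the real data most tested genes were called, so that test does not show how the procedure behaves here. Members, lists and tests were chosen with earlier results of these data known. All 10 members are named, and of each role list up to 4 called genes with the smallest adjusted p; other genes are said to be chosen after their values were seen, apart from the markers and HLF and SIK1, named for how they passed the filter. Promoter windows from RefSeq matched all 10 by gene ID. Alternatives were other pseudocounts, filters, scalings, no variance trend, a replicate block and leaving out each library.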

Additional observations from a re-analysis of the deposited data

How the results depend on the processing

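For NFIL3, BHLHE40, DBP, PER2, CRY2 and PER3 the direction and the call held under each alternative in which they could be tested: pseudocounts of 0.1 and 0.5, no filter, a minimum value of 5, 3 scalings, no variance trend, the replicate block and each library left out. Their log2 fold changes ranged over these from 1.17 to 1.36 (NFIL3), 0.835 to 1.02 (BHLHE40), 0.123 to 0.313 (DBP), -0.596 to -0.412 (PER2), -0.438 to -0.265 (CRY2) and 0.311 to 0.602 (PER3). At a minimum value of 5 the call count in the upward direction was 3 in place of 5, because ARNTL and PER3 were no longer tested. CLOCK and PER1, not called in the main fit, were not tested there either. CRY1, not called in any alternative, was at 0.0421 with upper-quartile scaling. ARNTL lost its call in 4 of 14 alternatives and PER1 gained one in 2 of 14, with the values given above; CLOCK was not called in any of 14. With a library left out, 6 to 7 clock genes were called (4 to 5 higher, 2 lower), and 8346 to 8487 genes in all, of 11156 to 11281 tested. Of the other clock genes, here with HLF and SIK1 counted where they were tested, 52 to 58 were called. Counted in the same way with all libraries, 61 of 68 were called, against 59 of 66 without HLF and SIK1. HLF and SIK1 passed the filter only through the controls, so their calls are not read as results. Replicate numbers are shared by the groups. Deviations from group means correlated at -0.155, -0.0182 and -0.0231 for same-numbered libraries and at -0.0966 to 0.114 for the other pairs. With 3 libraries a group, these values cannot show whether libraries were paired. With the replicate block 8770 genes in all and 7 clock genes were called. Scaling moved the median log2 fold change of all tested genes from -0.0608 to -0.145 (equal sums), -0.0264 (median of ratios) and 0.0332 (upper quartile). If the estimated depth holds, counting noise would be largest in PER3, ARNTL and CLOCK. Whole reads were not recovered, so that depth is uncertain.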
